A study of Mus musculus with 4 samples.

Results

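Neurotransmitter identity genes are the genes whose products let a neuron make, or load into synaptic vesicles, a particular transmitter. They were taken as 10 symbols: the vesicular glutamate transporters Slc17a7, Slc17a6 and Slc17a8, the GABA genes Gad1, Gad2 and Slc32a1, the monoamine synthesis genes Th and Tph2, and the acetylcholine genes Chat and Slc18a3. All 10 were found among the 55487 gene IDs of the deposited table by matching Ensembl IDs to GENCODE symbols, and 8 of them passed the filter on low counts. The samples are polyadenylated RNA of the calvaria, the roof of the skull, taken from E14.5 mouse embryos. There are 2 frontal bone libraries, and 2 libraries in which parietal and interparietal bone are held together. By its title the series belongs to work on vesicles that carry citrate in bone mineralization, and no treatment or genotype is given for either group. Strain, sex, pooling and embryo number are missing from the labels, and nothing says that the libraries are of separate animals. The p-values therefore cover the spread between these libraries, which may be technical.

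A neuron that releases glutamate carries a vesicular glutamate transporter of the SLC17 family. In the rodent brain Slc17a7 marks mainly neurons of the cerebral cortex, Slc17a6 neurons of the diencephalon, midbrain and hindbrain and of sensory ganglia, and Slc17a8 scattered neurons that often use a second transmitter. GABA is made from glutamate by the decarboxylases encoded by Gad1 and Gad2, catecholamines from tyrosine and serotonin from tryptophan through hydroxylases, and acetylcholine by choline acetyltransferase. In bulk RNA, fewer cells of a type and less RNA per cell cannot be told apart.

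The libraries held between 24069177 and 35555013 counts. CPM, the usual depth-corrected count, was taken over the tested genes with TMM scaling, and 3 counts corresponded to between 0.0852 and 0.123 CPM. The bone label was checked on 8 osteoblast markers, all of which were detected (1 called higher, 2 lower). Their summed level was 2596 and 2611 CPM in the frontal pair and 3656 and 3653 CPM in the parietal-interparietal pair. Most of this sum was Col1a1 and Col1a2, the 2 lower genes, so it mainly follows these collagen genes. Ibsp, the higher gene, was at 81.2 and 92.4 CPM against 40.9 and 40.7 CPM, and the other 5 were not called. Brain and ganglion markers were detected as well. Markers of the telencephalon, the front of the embryonic brain, were higher in frontal libraries in 6 of 6 cases (summed level 319 and 320 CPM, against 70.7 and 69.9 CPM). Of these, Emx1 and Tbr1 passed the filter only through the frontal libraries, so their calls add no support to that count. Markers of sensory ganglia were lower in frontal libraries in 8 of 8 (120 and 116 CPM, against 249 and 256 CPM). Markers of midbrain and hindbrain were lower in 4 of 8, with 0 higher (164 and 182 CPM, against 180 and 182 CPM). Most of the latter sum was Meis2 and Otx2, which were not called. En2 was at 0.591 and 1.08 CPM against 14.1 and 14.9 CPM, and En1 at 6.54 and 5.82 CPM against 14.3 and 16.3 CPM. The other lower genes, Pax5 and Wnt1, passed the filter only through the parietal-interparietal libraries. Of 5 autonomic markers 1 was higher and 2 lower (15.1 and 21.1 CPM, against 27.0 and 29.4 CPM). Of 6 neural progenitor markers 1 was higher and 1 lower (1131 and 1148 CPM, against 1116 and 1097 CPM). Most of that sum was Vim and Nes, which were not called. The higher gene, Sox2, was at 19.4 and 27.2 CPM against 11.3 and 11.7 CPM, and the lower one was Slc1a3. Of 5 olfactory epithelium markers 2 were higher and 1 lower (58.6 and 48.6 CPM, against 50.9 and 50.9 CPM). The higher ones, Cyp2g1 and Omp, passed the filter only through the frontal libraries. Schwann cell markers were lower in 3 of 5, muscle markers in 4 of 6 and meningeal markers in 4 of 6, with 0 higher in each. Over all genes tested 6.25% were called higher and 6.44% lower. The marker lists were chosen with earlier results of these data known. The part of these tissues in the results below was not tested.

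Of the members, 2 were higher in frontal libraries, Slc17a7 and Slc17a8, and Th was lower, while 5 tested members were not called. Slc17a8 passed the filter only through the frontal libraries, so its call adds no support to that count. A call is an adjusted p under 0.05 in edgeR's quasi-likelihood test, with Benjamini-Hochberg adjustment over all 20947 genes tested. Over those genes 12.7% had a call, 6.25% higher and 6.44% lower in the frontal pair. Frontal libraries were both above or both below the 2 parietal-interparietal libraries for 57.3% of genes tested.

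**Figure D1:**
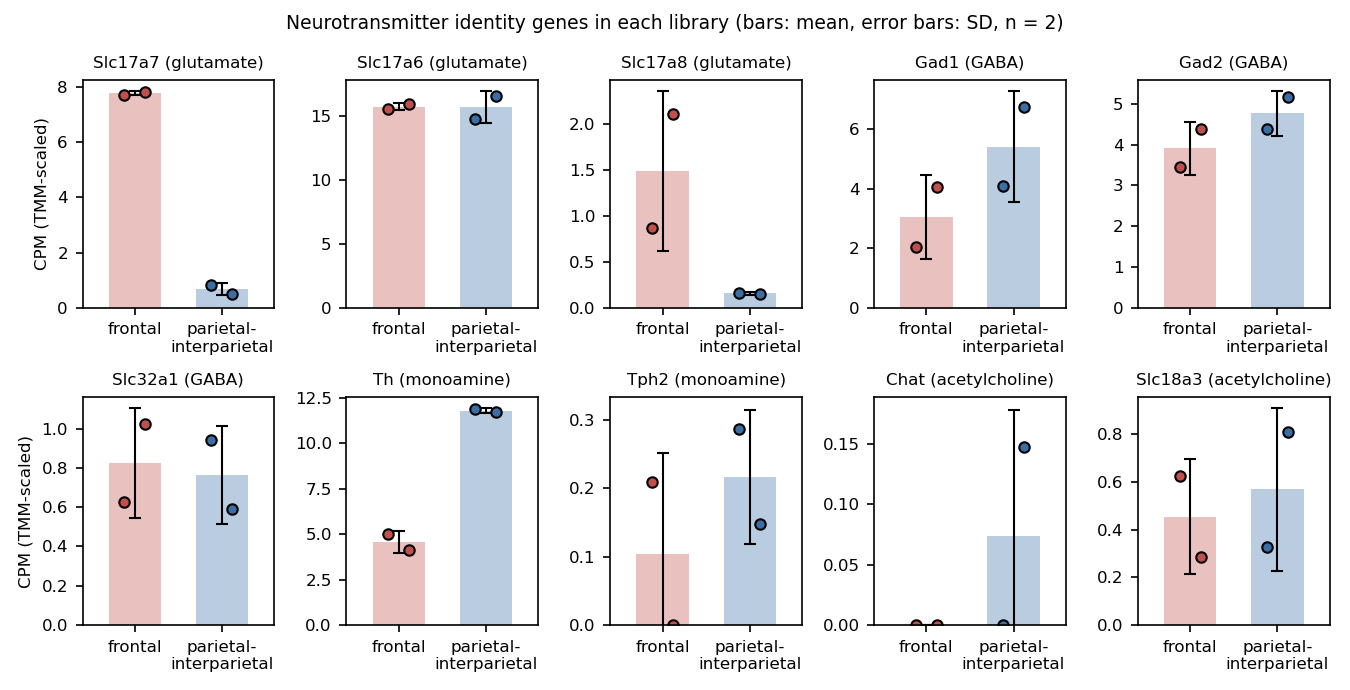
Level of each of the 10 genes in CPM, on linear axes from 0 that differ between genes, with 1 point per library (replicate 1 left of replicate 2), a bar at the mean and an error bar of 1 SD (n = 2 per group). Both frontal points of Slc17a7, at 7.72 and 7.84 CPM, stand far above the parietal-interparietal points at 0.818 and 0.516 CPM, and those of Th stand below theirs.

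Slc17a7 encodes the first of the vesicular glutamate transporters, VGLUT1 (ENSMUSG00000070570, GRCm38 chromosome 7, 45163949 to 45176142, plus strand). It had 222 and 276 counts in frontal libraries 1 and 2, against 20 and 14 counts in parietal-interparietal libraries 1 and 2. In CPM this was 7.72 and 7.84 against 0.818 and 0.516. The frontal libraries lay close together and every one of them was far above both parietal-interparietal libraries. The mean was 7.78 ± 0.0839 CPM in the frontal pair and 0.667 ± 0.214 CPM in the parietal-interparietal pair (SD, n = 2 each), an 11.7-fold difference (log2 fold change 3.55 ± 0.31 SE, 95% interval 2.86 to 4.24, edgeR adjusted p = 9.99e-05). The call held with each library left out in turn, with log2 fold changes between 3.24 and 3.90. The 6 telencephalon markers, of which Emx1 and Tbr1 passed the filter only through the frontal libraries, were higher in the same libraries. Their part in this difference was not tested.

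Slc17a8 encodes VGLUT3 (ENSMUSG00000019935, chromosome 10, 89574020 to 89621253, minus strand). Frontal libraries 1 and 2 had 25 and 74 counts, and the parietal-interparietal libraries had 4 counts each. Its level was 0.869 and 2.1 CPM in the frontal pair and 0.164 and 0.147 CPM in the parietal-interparietal pair. The groups did not overlap, but frontal library 2 was well above frontal library 1. The log2 fold change was 3.23 ± 0.73 (95% interval 1.62 to 4.84, edgeR adjusted p = 0.0165). Its call was lost without parietal-interparietal library 2, with little change in size (3.16, adjusted p = 0.0572). The size was smallest without frontal library 2, at 2.45 (adjusted p = 0.0407), and largest without frontal library 1, at 3.72.

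Slc17a6, which encodes VGLUT2 (ENSMUSG00000030500, chromosome 7, 51622006 to 51671119, plus strand), was the most abundant of these transporters in both groups. It had 448 and 561 counts in the frontal pair and 362 and 451 counts in the parietal-interparietal pair, or 15.6 and 15.9 CPM against 14.8 and 16.6 CPM. The frontal values lay inside the range of the parietal-interparietal ones. The log2 fold change was 0.0030 ± 0.13 (edgeR adjusted p = 0.993), with a 95% interval from −0.30 to 0.30, so that a difference of more than 1.23-fold in either direction lay outside the interval. In the same libraries telencephalon markers were higher in 6 of 6 cases, Emx1 and Tbr1 passing the filter only through the frontal ones. Sensory ganglion markers were lower in 8 of 8. The part of these markers in this level was not tested.

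The makeup of the family was then compared, with each gene as a share of the 3 transporters. Per kilobase of exon, Slc17a7 made up 31.8% and 30.0% of the summed level of the 3 transporters in frontal libraries 1 and 2, against 5.18% and 2.99% in parietal-interparietal libraries 1 and 2. As a share of the family's counts it was 31.9% (95% Wilson interval 28.6 to 35.5) and 30.3% (27.4 to 33.4) in frontal libraries, against 5.18% (3.38 to 7.87) and 2.99% (1.79 to 4.95) in the parietal-interparietal pair. These intervals cover counting error only and take each count as independent. If both mates of a read pair were counted, which was not tested, the intervals are too narrow. Slc17a6 made up 64.1% and 60.8% of the family per kilobase in frontal libraries, against 93.6% and 96.0%. Its level per kilobase was 2.02 and 2.03 times that of Slc17a7 in frontal libraries, against 18.1 and 32.2 times in the parietal-interparietal pair. Such shares do not depend on how libraries are scaled, and with 2 libraries a group an exact permutation test could not give a p below 0.33.

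**Figure D2:**
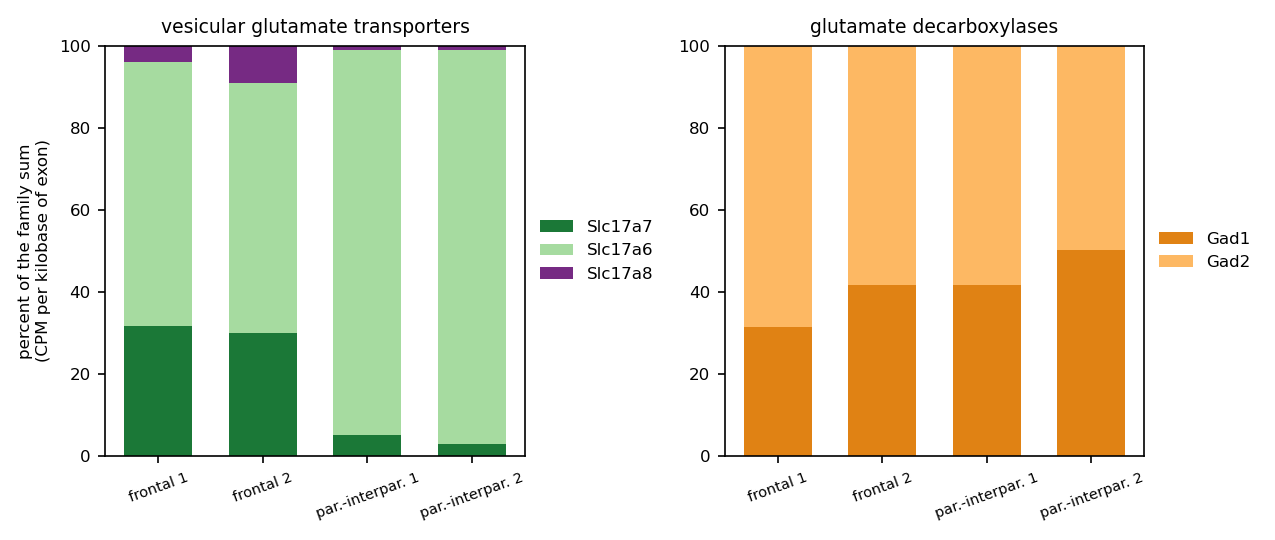
Percent of the summed level (CPM per kilobase of exon) of the vesicular glutamate transporters (left) and of the glutamate decarboxylases (right) in each of the 4 libraries. Slc17a7 takes 31.8% and 30.0% in the frontal libraries, 5.18% and 2.99% with the other bones, while Gad1 takes 31.4% and 41.7% of the decarboxylase level in the frontal libraries, nearly touching the 41.8% and 50.1% of the others.

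The GABA genes were not called. Gad1 encodes the larger isoform of glutamate decarboxylase (ENSMUSG00000070880, chromosome 2, 70553072 to 70602014, plus strand). It had 59 and 143 counts in the frontal pair and 100 and 183 counts in the parietal-interparietal pair, or 2.05 and 4.06 CPM against 4.09 and 6.74 CPM. Library 1 was the lower one in each group, and frontal library 2 nearly touched parietal-interparietal library 1. The log2 fold change was −0.82 ± 0.36 (95% interval −1.61 to −0.02, unadjusted p = 0.0449, edgeR adjusted p = 0.173). With 1 library left out it ranged from −1.41 without frontal library 2, where it was called (edgeR adjusted p = 0.00175), to −0.41 without parietal-interparietal library 2 (adjusted p = 0.740). It was −0.42 without frontal library 1 (adjusted p = 0.335).

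Gad2 encodes the smaller isoform, which is bound to synaptic vesicles (ENSMUSG00000026787, chromosome 2, 22622205 to 22693874, plus strand). It was at 3.44 and 4.37 CPM in the frontal pair and 4.38 and 5.16 CPM in the parietal-interparietal pair. The highest frontal and the lowest parietal-interparietal value were nearly equal, and the log2 fold change was −0.28 ± 0.26 (95% interval −0.85 to 0.28, edgeR adjusted p = 0.525). Gad1 made up 31.4% and 41.7% of the summed decarboxylase level per kilobase in frontal libraries, against 41.8% and 50.1% in the parietal-interparietal pair.

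Slc32a1 encodes the transporter that loads GABA and glycine into vesicles (ENSMUSG00000037771, chromosome 2, 158610767 to 158615748, plus strand). It had 18 and 36 counts in the frontal pair and 23 and 16 counts in the parietal-interparietal pair. Its level of 0.626 and 1.02 CPM in frontal libraries overlapped 0.941 and 0.590 CPM in the parietal-interparietal pair, and the log2 fold change of 0.12 ± 0.61 had a 95% interval from −1.23 to 1.47 (edgeR adjusted p = 0.930). That interval holds a difference of 1 log2 unit in either direction, so a change of that size is not excluded. An antisense gene, Gm14205, shares 697 of its 2797 exon bases but had 0 counts in all 4 libraries.

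Th encodes tyrosine hydroxylase, the rate-limiting enzyme of catecholamine synthesis (ENSMUSG00000000214, chromosome 7, 142892752 to 142931128, minus strand). It had 144 and 146 counts in frontal libraries, against 291 and 318 counts in the parietal-interparietal pair. In CPM this was 5.01 and 4.15 against 11.9 and 11.7, so both frontal libraries were under both parietal-interparietal ones. The mean was 4.58 ± 0.609 CPM in the frontal pair and 11.8 ± 0.134 CPM in the parietal-interparietal pair (SD, n = 2 each). Th was 2.59-fold lower in frontal libraries (log2 fold change −1.37 ± 0.19, 95% interval −1.78 to −0.96, edgeR adjusted p = 0.00127). With each library left out in turn it stayed called, at −1.51 to −1.24. Sensory ganglion markers (8 of 8) and 2 of 5 autonomic markers (Dbh among them) were lower in the same libraries, while 1 of the 5, Hand2, was higher, and their part in this difference was not tested.

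Tph2, which encodes the tryptophan hydroxylase of brain serotonin neurons (ENSMUSG00000006764, chromosome 10, 115078641 to 115185022), was near the floor of detection. It had 6 and 0 counts in the frontal pair and 7 and 4 counts in the parietal-interparietal pair, and it did not pass the filter. The 0 in frontal library 2 allows up to 0.0852 CPM, counting error only and with each count taken as independent.

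Chat, which encodes choline acetyltransferase (ENSMUSG00000021919, chromosome 14, 32408203 to 32465989, minus strand), had 0 and 0 counts in the frontal pair and 0 and 4 counts in the parietal-interparietal pair and was not tested. Slc18a3, which encodes the vesicular acetylcholine transporter (ENSMUSG00000100241, 32462438 to 32464850), lies inside the Chat gene on the same strand and shares 0 exon bases with it. It had 18 and 10 counts in the frontal pair and 8 and 22 counts in the parietal-interparietal pair. In CPM this was 0.626 and 0.284 against 0.327 and 0.811, the groups overlapped, and the 95% interval of the log2 fold change ran from −2.09 to 1.40 (edgeR adjusted p = 0.833). No difference in Slc18a3 was detected, and its interval is wide.

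**Figure D3:**
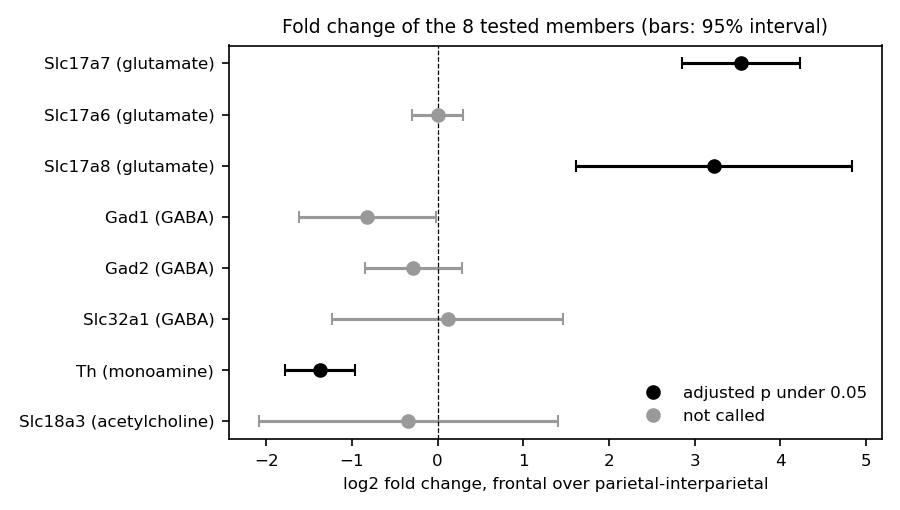
Log2 fold change (frontal over parietal-interparietal) of the 8 tested genes, with 95% intervals from the edgeR fit; black points are called, grey points are not. The intervals of Slc17a7 (2.86 to 4.24), Slc17a8 (1.62 to 4.84) and Th (−1.78 to −0.96) lie away from 0, that of Slc17a6 is narrow around 0, and those of Slc32a1 and Slc18a3 are wide.

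Levels per kilobase of exon ordered the members differently in each group. In frontal libraries Slc17a6 led at a mean of 2.92 CPM per kilobase, followed by Th at 1.94 and Slc17a7 at 1.44, then Gad2 at 0.665, Gad1 at 0.400, Slc17a8 at 0.315, Slc32a1 at 0.295 and Slc18a3 at 0.189. In parietal-interparietal libraries Th led at 5.0 CPM per kilobase, followed by Slc17a6 at 2.91, Gad2 at 0.812 and Gad1 at 0.709, then Slc32a1 at 0.274, Slc18a3 at 0.236 and Slc17a7 at 0.124. Neighbours in this order from Gad1 down to Slc18a3 overlapped per library in the frontal pair. So did Gad2 with Gad1, Slc32a1 with Slc18a3 and Slc18a3 with Slc17a7 in the other pair. Gad1 was above Slc17a8 within each frontal library, at 0.269 and 0.532 against 0.184 and 0.445. The order of the other neighbours named here changed between libraries of a pair, so it is not settled. Tph2 and Chat were under 0.1 CPM per kilobase in every library. So was Slc17a8 in the parietal-interparietal pair, at 0.0347 and 0.0312 CPM per kilobase.

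The differences were also read against a sum of neuronal genes. Whether that sum measures the amount of neuronal RNA was not tested. Among its genes of high level, Map2 was called higher, Stmn2, Vamp2 and Gap43 lower, and Tubb3 and Dcx were not called. Differences in opposite directions partly cancel in such a sum. The summed level of 25 genes shared by most neurons was 1398 and 1414 CPM in the frontal pair and 1456 and 1480 CPM in the parietal-interparietal pair. For every 10000 CPM of this sum there were 55.2 and 55.4 CPM of Slc17a7 in frontal libraries, against 5.62 and 3.49 CPM in the parietal-interparietal pair. Th was at 35.8 and 29.3 against 81.8 and 79.2 on that scale, and Slc17a6 at 111 and 113 against 102 and 112. In log2 units the frontal minus parietal-interparietal difference relative to the sum was 3.64 for Slc17a7, 3.18 for Slc17a8, 0.07 for Slc17a6 and −1.31 for Th. On this scale Gad1 overlapped between groups, at 14.7 and 28.7 against 28.1 and 45.6. Of the 25 genes themselves 3 were called higher in frontal libraries (Nsg2, Map2 and Elavl3) and 6 lower. Without either parietal-interparietal library 0 were called higher and 2 lower, and without frontal library 2 there were 7 higher and 9 lower. The lower genes included Gap43 of growing axons at −0.69 ± 0.12 and Syt1, the calcium sensor of vesicle release, at −0.93 ± 0.17 log2 units.

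The windows upstream of the called transporters, Th and, for contrast, the uncalled Slc17a6 are printed because they lie just before the RefSeq starts of these genes. They are RefSeq sequences (GRCm38.p6) of bases 250 to 21 before the annotated transcript start, in lower case, read 5′ to 3′ on the gene's strand. Capitals mark any match to 5 short motifs. These were the E-boxes CAGATG and CAGCTG, which NEUROD and other basic helix-loop-helix factors can bind, the cyclic AMP response element TGACGTCA, the TATA motif TATAAA and the CCAAT motif. Both strands were searched. Where RefSeq gave several starts, the window nearest to the GENCODE gene start was used: Slc17a6 and Slc17a8 had 2 each, and their other window was not searched. Th had 1 RefSeq start, at 142899995. It lies inside the GENCODE span of Th, whose upstream end is at 142931128, and the sequence before that end was not searched.
Slc17a7 (chr7:45163671-45163900, plus strand): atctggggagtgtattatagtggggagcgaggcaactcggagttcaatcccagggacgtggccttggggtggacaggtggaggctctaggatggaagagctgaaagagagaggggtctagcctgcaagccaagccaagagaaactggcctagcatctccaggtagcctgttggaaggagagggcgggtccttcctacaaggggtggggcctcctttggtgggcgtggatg
Slc17a8 (chr10:89621270-89621499, minus strand): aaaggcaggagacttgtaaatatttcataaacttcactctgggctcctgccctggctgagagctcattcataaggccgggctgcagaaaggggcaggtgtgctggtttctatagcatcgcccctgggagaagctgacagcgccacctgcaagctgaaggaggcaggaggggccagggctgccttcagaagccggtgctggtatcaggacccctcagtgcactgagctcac
Slc17a6 (chr7:51621580-51621809, plus strand): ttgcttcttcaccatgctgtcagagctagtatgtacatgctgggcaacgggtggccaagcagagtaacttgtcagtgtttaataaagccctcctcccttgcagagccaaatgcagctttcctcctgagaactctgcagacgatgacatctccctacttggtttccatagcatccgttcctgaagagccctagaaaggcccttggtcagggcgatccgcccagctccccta
Th (chr7:142900016-142900245, minus strand): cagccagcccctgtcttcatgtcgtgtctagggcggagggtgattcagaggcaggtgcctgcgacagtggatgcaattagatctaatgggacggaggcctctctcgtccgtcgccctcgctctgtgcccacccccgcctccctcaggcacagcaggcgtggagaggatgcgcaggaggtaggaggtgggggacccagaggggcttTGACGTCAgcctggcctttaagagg
The windows printed for the 3 glutamate transporters held none of the 5 motifs, and that of Th held 1 match, TGACGTCA, which starts 45 bases before the transcript start. TGACGTCA was found in 1.28% of all 32851 RefSeq windows of this length, CAGATG in 13.4%, CAGCTG in 11.8%, TATAAA in 11.8% and CCAAT in 32.2%. Over all 10 members CAGATG was in the window of Gad2 alone, CAGCTG in that of Chat, TATAAA in those of Gad1 and Tph2, and CCAAT in those of Gad2 and Chat. G and C made up 58.7% of the Slc17a7 window and 52.6% of the Slc17a6 window, against a median of 51.7% over all windows. A match describes letters only.

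**Figure D4:**
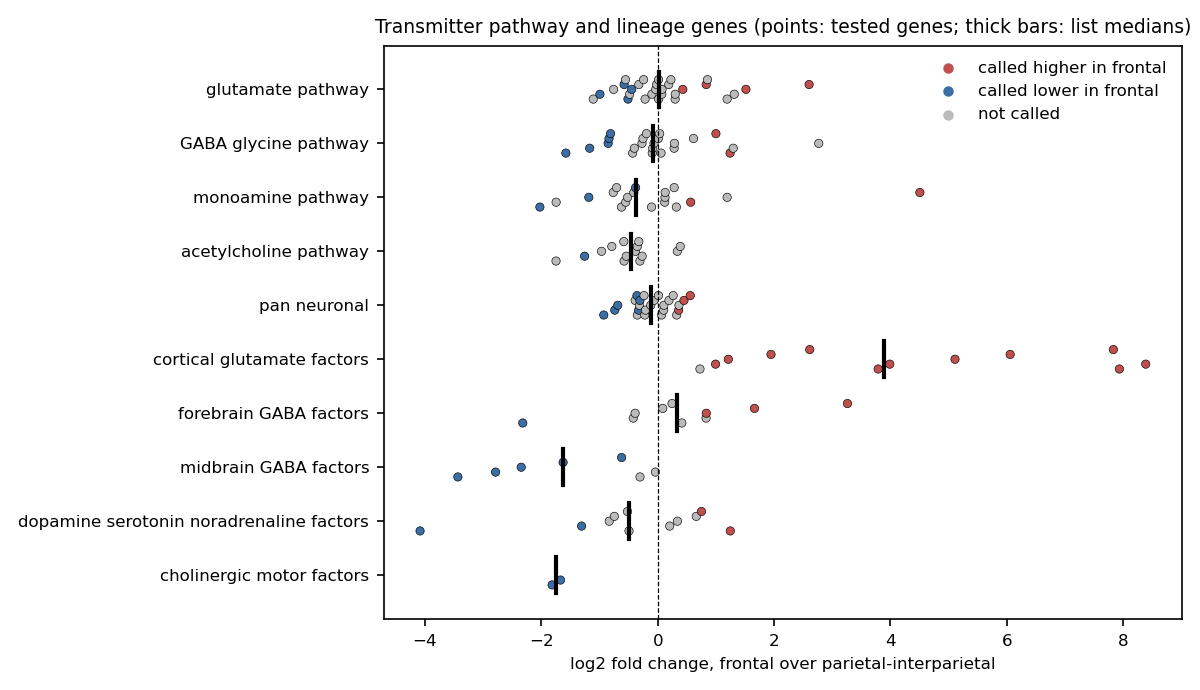
Log2 fold change (frontal over parietal-interparietal) of every tested gene in 10 lists, 1 point per gene, coloured where called; the thick bar is the list's median and the dashed line the median of all genes tested. The cortical glutamate factors sit to the right, with a median of 3.89, and the midbrain GABA factors to the left, with a median of −1.63, while the pathway and shared neuronal lists straddle 0.

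Around the glutamate transporters, 29 tested genes of glutamate handling and glutamate receptors had a median log2 fold change of 0.013, beside 0.0060 over all genes tested, with 4 called higher, 4 lower and 21 not called. The higher genes were receptor subunits. Grik2, a kainate receptor subunit, was at 24.9 and 26.3 CPM in the frontal pair and 5.16 and 3.32 CPM in the parietal-interparietal pair (6.07-fold, edgeR adjusted p = 3.52e-05). Gria2, the AMPA receptor subunit that limits calcium entry, was at 47.5 and 43.0 against 15.2 and 16.4 CPM (2.86-fold, adjusted p = 3.78e-05). The NMDA subunit gene Grin2b and the kainate subunit gene Grik5 had log2 fold changes of 0.83 and 0.43. Among the lower genes, Glul encodes glutamine synthetase (−0.45 ± 0.09) and Slc38a2 an amino acid transporter (−0.58 ± 0.11). Slc1a3, a glial glutamate transporter, and the metabotropic receptor gene Grm3 were at −0.51 and −0.99. Numbers called without either parietal-interparietal library were 2 higher each, with 1 lower without library 1 and 2 lower without library 2, and Glul was not called in either case.

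Transcription factors of cortical glutamatergic neurons were higher in the same libraries as Slc17a7. Of 12, 11 were called higher and 0 lower (median 3.89), beside 6.25% higher and a median of 0.0060 over all genes tested. The list was chosen with earlier results of these data known, so its count is not independent support. Those with the smallest p were Eomes, Neurod2, Neurod6 and Tbr1, whose log2 fold changes lay between 5.11 and 8.39. Eomes, Tbr1 and Emx1 had at most 6 counts in a parietal-interparietal library and passed the filter only through the frontal libraries, so their part of this count and median is a description. Neurog1 was not called. Tbr1 and Neurod6 are also among the 6 telencephalon markers, whose part in this list was not tested.

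For GABA and glycine, 23 tested genes of uptake, breakdown and receptors had a median of −0.09, with 2 called higher and 5 lower. Slc6a13, a GABA transporter that the meninges also express, was at 20.5 and 24.2 CPM in the frontal pair and 50.4 and 50.4 CPM in the parietal-interparietal pair (2.25-fold lower, edgeR adjusted p = 0.000187). Abat, the transaminase that breaks GABA down, was 1.79-fold lower, and the betaine and GABA transporter gene Slc6a12 was 2.99-fold lower, losing its call without parietal-interparietal library 1. Slc6a11, another GABA transporter, and Aldh5a1, which acts after Abat, were not called, at −0.25 ± 0.73 and 0.0086 ± 0.13. Meningeal markers, Slc6a13 among them, summed to 254 and 245 against 446 and 438 CPM, and their part in these differences was not tested. The receptor subunit genes Gabra2 and Gabrb1 were higher at 1.00 and 1.24 log2 units, and Gabbr2, a metabotropic GABA receptor subunit, was lower at −0.85. Without parietal-interparietal library 1 the numbers were 1 higher and 3 lower, and without library 2 they were 0 higher and 4 lower.

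Regulators of GABAergic neurons were listed by brain region. Of 10 tested forebrain factors 3 were higher and 1 lower. Dlx1 and Sp8 were 1.78-fold and 3.17-fold higher, both losing the call without parietal-interparietal library 2. Gsx1 was 4.99-fold lower, losing its call without parietal-interparietal library 1. It passed the filter only through the parietal-interparietal libraries, so its call adds no support to that count. Of 7 midbrain factors 5 were lower and 0 higher, beside 6.44% lower over all genes tested. This list too was chosen with earlier results known, and the cells its genes come from were not tested. Tal1 had the smallest difference of the 5, at −0.62 ± 0.18, and Gata2 was not called, at −0.04 ± 0.17. Tal2 was at 1.46 and 2.92 CPM in the frontal pair and 13.7 and 17.1 CPM in the parietal-interparietal pair (edgeR adjusted p = 0.00025), and Gata3, which sympathetic neurons also express, was at 6.47 and 8.77 against 23.0 and 24.3 CPM (adjusted p = 0.000264). Helt had a log2 fold change of −2.35 ± 0.65, and Nkx2-2 had 2 and 2 counts against 20 and 17 counts. Both passed the filter only through the parietal-interparietal libraries. Without either parietal-interparietal library 2 of the 7 were called, Tal2 and Gata3.

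Among 19 tested monoamine genes 2 were higher and 3 lower, with a median of −0.38. Dbh and Slc6a2 belong to noradrenaline neurons and were lower, as Th was. Dbh, which converts dopamine to noradrenaline, was at 2.05 and 3.12 CPM in the frontal pair and 5.69 and 6.15 CPM in the parietal-interparietal pair (2.27-fold lower, edgeR adjusted p = 0.0202). Slc6a2, the noradrenaline transporter, was at 0.939 and 0.994 against 3.03 and 4.86 CPM (4.07-fold lower, adjusted p = 0.0069). The call of Dbh was lost on leaving out either parietal-interparietal library, and that of Slc6a2 on leaving out library 2. The list then had 1 lower gene without library 1 and 0 without library 2. Without frontal library 2 there were 6.

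Of other genes of catecholamine neurons, Ddc, Slc18a2 and Slc6a3 were not called. Ddc, the decarboxylase that follows Th, was at 8.38 and 8.77 against 11.4 and 11.4 CPM (log2 fold change −0.41 ± 0.16, edgeR adjusted p = 0.119). Slc18a2, the vesicular monoamine transporter, was at 2.43 and 4.40 against 5.93 and 4.16 CPM. Slc6a3, the dopamine transporter, had 7 and 9 counts in the frontal pair and 18 and 26 counts in the parietal-interparietal pair (adjusted p = 0.145). Of 11 tested transcription factors of monoamine neurons 2 were higher and 2 lower. En2 and En1, which dopamine and serotonin precursors need, were lower at −4.09 ± 0.27 and −1.31 ± 0.16. Nr4a2 and Hand2 were higher at 0.75 ± 0.19 and 1.25 ± 0.34, and both lost the call without parietal-interparietal library 1, Nr4a2 also without library 2 and Hand2 also with total counts as the scaling. Without frontal library 2, 5 of the 11 were lower. The autonomic factor Phox2a was not called, at −0.83 ± 0.36.

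On the serotonin side Htr2c, a receptor that the choroid plexus expresses strongly, was at 6.02 and 6.45 CPM in the frontal pair and 0.164 and 0.368 CPM in the parietal-interparietal pair (22.7-fold, edgeR adjusted p = 0.00011), and it passed the filter only through the frontal libraries. Slc6a4, the serotonin transporter, was at 1.39 and 0.738 against 0.327 and 0.590 CPM and was not called (adjusted p = 0.279). Qdpr, which regenerates the cofactor of Th and Tph2, was 1.48-fold higher, a call lost without either parietal-interparietal library.

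Of 14 tested acetylcholine genes 1 was lower and 0 higher, with a median of −0.46. The lower gene was Chrna3, a nicotinic receptor subunit of autonomic ganglia, at 2.78 and 2.16 CPM in the frontal pair and 7.12 and 4.68 CPM in the parietal-interparietal pair (2.39-fold, edgeR adjusted p = 0.0203), a call lost without parietal-interparietal library 1. Without frontal library 2, 1 gene was higher and 5 were lower. Slc5a7, the choline transporter of cholinergic terminals, had 24 and 29 counts in the frontal pair and 47 and 26 counts in the parietal-interparietal pair (adjusted p = 0.383). Of 5 motor neuron factors, Mnx1 had 0 counts in all 4 libraries and Lhx3 and Lhx4 did not pass the filter. The other 2, Isl1 and Isl2, which sensory ganglia also express (Isl1 is among the 8 sensory ganglion markers), were lower at −1.67 ± 0.13 and −1.82 ± 0.25.

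By the Euclidean distance between log2 CPM profiles, each centred over the 4 libraries, the closest of 14227 candidates at 1 CPM or more on average were listed for the 5 members above that level. Over 4 libraries such a likeness is mainly one of fold change. For Slc17a7 they were Meig1, Neurog2 and 1700012B09Rik, at distances of 0.369 to 0.413 log2 units. For Th they were Itgbl1, Gal and Treml1, at 0.0528 to 0.0980. For Gad1 they were Barhl2, Tmem182 and Lrrc55, none of them called, for Gad2 Hypk, Lemd1 and Ogfod2, and for Slc17a6 Chp1, Qrich1 and Mboat2. Neurog2, a proneural factor of cortical glutamate neurons, was at a mean of 32.8 CPM in the frontal pair and 2.39 CPM in the parietal-interparietal pair.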

How the data were processed

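The authors deposited raw counts for each gene in each library. The submitters' processing notes name featureCounts 2.0.1, HISAT2 2.1.0, Trim Galore 0.6.7 and the build GRCm38. The strand setting, the annotation and the handling of multiply mapped reads are not stated there. Total counts were 29598388 and 35555013 for frontal libraries 1 and 2, against 24069177 and 26645504 for the parietal-interparietal pair. Symbols and positions came from GENCODE M21 on GRCm38 (55227 IDs matched, 260 not).

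Genes were filtered with filterByExpr (minimum count 10), scaled by TMM and tested two-sided in edgeR 4.0.16 (R 4.3.3), frontal minus parietal-interparietal, with 2 residual degrees of freedom. The standard error is the absolute log2 fold change over the square root of F. The procedure was tested on simulated data. Each library was counted as a sample. Between libraries of a group the counts varied 9.04 times (frontal) and 2.89 times (parietal-interparietal) as much as binomial sampling gives. Such an excess does not show that the libraries are of separate animals. Even numbers made up 68.3% to 74.4% of counts from 1 to 20, and counts were therefore also halved, as if each mate had been counted. Other alternatives were other scaling, no filter, DESeq2 1.42.0, each library left out, a replicate block and the parietal-interparietal pair summed.

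The 10 members, 10 gene lists (167 genes) and 10 marker lists were chosen with earlier results of these data known. From each gene list up to 4 called genes with the smallest p were named by rule. Others named were chosen after their values were seen. Some genes of the lists are counted but not reported here by name. Figures were drawn with matplotlib 3.10.9.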

Additional observations from a re-analysis of the deposited data

How the results depend on the processing

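Slc17a7 and Th kept direction and call in all 11 alternatives. The number of genes called was 1016 with the parietal-interparietal pair summed and 1029 to 6942 with 1 library left out (5035 and 6942 without frontal 1 and 2, 1064 and 1029 without parietal-interparietal 1 and 2), against 2657. Members called higher were 1 in DESeq2, which gave no adjusted p for Slc17a8 (log2 fold change 3.26, unadjusted p = 0.000295), and 1 to 2 with 1 library left out. Members called lower were 2 with no filter on low counts, where Gad1 joined Th, and 1 to 2 with 1 library left out. With total counts only, 38.0% of called genes were higher, against 49.3% with TMM, and Slc17a6 turned to −0.049. Slc17a6 also turned to −0.02 without frontal library 2, and ranged from −0.077 to 0.089 with 1 library left out. Slc18a3 (−1.003 to 0.46) was positive and Slc32a1 (−0.29 to 0.49) negative without frontal library 2 and without parietal-interparietal library 2. The cause was not tested. Fits with 1 library left out take the spread from the pair left whole.

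Differences of replicate 1 minus replicate 2 correlated at 0.02 between the groups over the genes tested. The labels do not say whether libraries of the same number were paired, and a correlation over genes cannot decide it. With the replicate block 3306 genes were called, and 2 members were called higher and 2 lower, Gad1 among them (adjusted p = 0.0343). With counts halved the log2 fold change of Slc17a7 was 3.54 and that of Th −1.37. Counts were low for Slc32a1, Slc18a3, Tph2 and Chat, at most 36 in any library.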

Other observations

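Genes that overlap the members on the other strand had few counts, and of these Gm14205 at Slc32a1 shares exon bases with its partner in GENCODE. Gad1os, an antisense gene at Gad1, had 17 and 42 counts in frontal and 15 and 13 counts in parietal-interparietal libraries, and shares 0 exon bases with Gad1. Gm2990, antisense at Chat, had 18 and 2 counts in frontal and 2 counts in each parietal-interparietal library. It shares 0 exon bases with Chat. Hdc, which makes histamine, was at 7.68 and 10.7 CPM in frontal and 9.49 and 10.4 CPM in parietal-interparietal libraries and was not called (edgeR adjusted p = 0.782). Of the 36 member values above 0, 25 were even numbers.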
